A study of Cricetulus griseus with 24 samples.

Results

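The genes described here drive chromosome segregation: subunits of the kinetochore and its Ndc80 complex, spindle checkpoint and mitotic kinase genes, cyclins and regulators of the anaphase-promoting complex, spindle motors, cytokinesis genes and condensins. They were taken from a list of 47 symbols matched to the gene symbols of the counts table without regard to case. Of these, 45 matched by symbol, Knl1 was found by its gene ID 100755881 under the older symbol Casc5, and the remaining symbol matched no row and was not analysed here, which left 46 of 28037 genes. The list was chosen for function, after Ndc80 had been seen to stay higher in stationary A1 than in stationary A0, and the question was whether the other genes of mitosis did so with it.

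RNA-seq counts were available for 24 libraries from 20 cultures of 3 Chinese hamster ovary (CHO) cell lines, each at exponential and at stationary growth phase. A0 is an antibody-producing parental clone, transfected with a heavy chain and a light chain plasmid and selected in G418. A1 is the progeny of A0 after gene amplification with methotrexate (MTX), so that A0 and A1 share the DG-44 host, both transgenes and the selection. They differ by the amplification and by any other change that came with it, which cannot be told apart here. CHO-S, a CHO line of another lineage that makes no antibody, was the negative control; its samples carry CHO-S as the cell line label and NDST in their titles, a name that is not explained. There were 4 A0 cultures at each phase and 3 cultures at each phase of A1 and of CHO-S. The exponential A0 samples held 2 libraries for each culture number, the second marked RLT or Duplicate. These marks are not explained, and libraries of the same number were taken as 1 culture and summed. Each line was 1 clone or 1 stock, so differences between lines rest on replicate cultures and not on independent clones. The study's methods describe replicate flasks of each line but not how the numbered samples relate to them, so p-values measure only the spread between these samples.

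Libraries held 6532373 to 14652646 counts on genes with 1 exception, stationary CHO-S culture 1, with 1038026. That library differed from the other CHO-S stationary libraries by a chi-square per degree of freedom of 28.4 and 31.5, against 2.19 between those, and the main counts and named genes of stationary CHO-S are given below with and without it. Stationary A0 cultures 1 and 2 also stood apart from cultures 3 and 4 (15.7 to 19.2, against 3.74 and 2.77 within the pairs), and the main counts that rest on stationary A0 are given below for each pair. Of the exponential A0 libraries, the 2 taken as culture 1 differed by 26.8, and its first library was nearer to that of culture 2 (2.43). The 2 libraries of cultures 2, 3 and 4 differed by 5.98, 3.12 and 2.74.

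Mitosis begins when cyclin B and Cdk1 are switched on by Cdc25 phosphatases. Each chromosome then builds a kinetochore on centromeric chromatin marked by Cenpa, and the Ndc80 complex, made of Ndc80, Nuf2, Spc24 and Spc25, forms the attachment to spindle microtubules. The spindle checkpoint holds back the anaphase-promoting complex until all chromosomes are attached, after which cohesin is cut by separase and the cell divides. Most of these genes are transcribed in the G2 and M phases of cycling cells, under the control of the DREAM, MuvB and FoxM1 complexes, and their transcripts fall when cells leave the cycle. In bulk RNA a smaller share of cells in mitosis and less of these transcripts per cell cannot be told apart.

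The 46 genes had similar median levels in the 3 exponential groups and fell in each line at stationary phase, by the smallest median in A1. Relative to the mean of exponential A0, the median of the genes lay between -0.06 and 0.05 on the log2 scale in the 4 exponential A0 cultures, between -0.02 and 0.02 in the 3 exponential A1 cultures and between -0.15 and -0.09 in exponential CHO-S. In stationary A0 it was -1.20, -1.39, -0.82 and -0.70 in cultures 1 to 4. In stationary A1 it was -0.38, -0.47 and -0.50, so that each A1 culture lay above each A0 culture. In stationary CHO-S it was -0.79, -0.89 and -0.83.

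**Figure D1:**
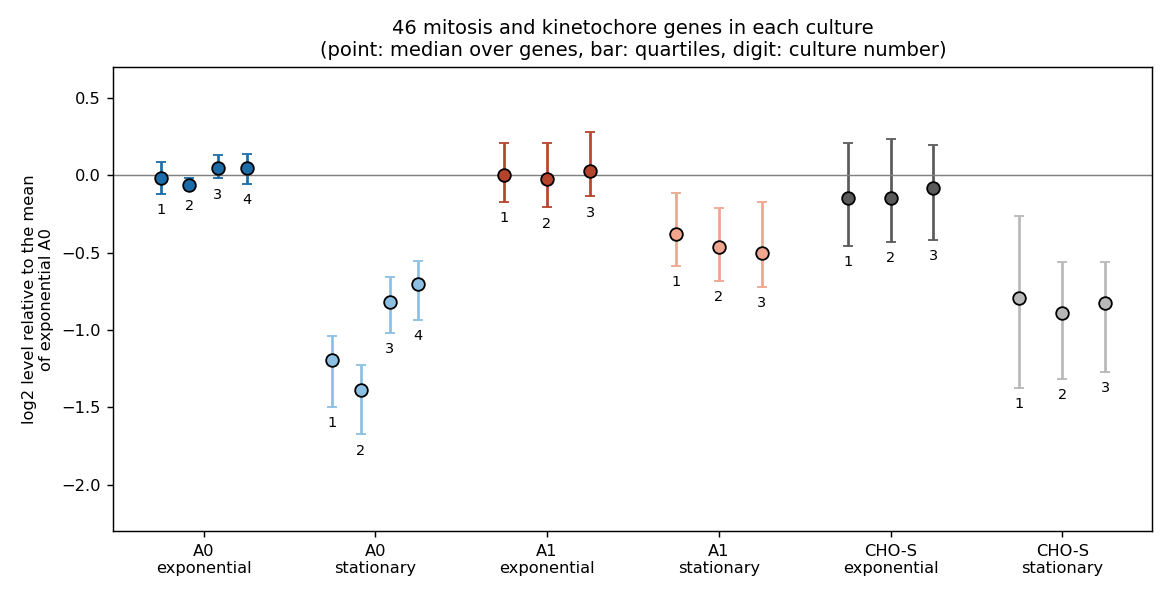
Level of the 46 mitosis and kinetochore genes in each of the 20 cultures, as the log2 of normalized CPM relative to the mean of exponential A0. Points are medians over the genes, bars run from the lower to the upper quartile over the genes, and digits are culture numbers. Stationary A1 cultures lie between -0.50 and -0.38 and stationary A0 cultures between -1.39 and -0.70.

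The Ndc80 complex was examined first. Ndc80 (gene ID 100751668), which binds the microtubule, had 181, 182, 208 and 222 CPM (TMM-normalized counts scaled to a common library size) in exponential A0 and 173, 169 and 181 CPM in exponential A1. At stationary phase it had 62.8, 54.5, 101 and 103 CPM in A0 and 128, 107 and 105 CPM in A1. The lowest stationary A1 culture was thus just above the highest A0 culture, while A0 cultures 1 and 2 lay far below.

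The log2 fold change of Ndc80 in A1 against A0 was -0.19 ± 0.09 (SE) at exponential phase (adjusted p = 0.17 from edgeR) and 0.48 ± 0.18 at stationary phase (adjusted p = 0.054 from edgeR), which missed the threshold of 0.05. It passed without A0 culture 3 or without A0 culture 4, and against A0 cultures 1 and 2 alone, where it was 0.93. Against A0 cultures 3 and 4 alone it was 0.14 (adjusted p = 0.19 from edgeR). In CHO-S, Ndc80 had 128, 128 and 130.2 CPM at exponential phase and 151, 61.1 and 62.9 CPM at stationary phase, the high value being that of the shallow culture 1 and resting on 146 counts.

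Nuf2 (gene ID 100767003), which pairs with Ndc80 to form the microtubule-binding end, had 79.0, 65.7, 62.2 and 74.4 CPM in exponential A0 against 60.3, 51.1 and 56.9 CPM in exponential A1. At stationary phase it had 19.4, 18.4, 31.6 and 27.3 CPM in A0 against 37.1, 39.6 and 32.5 CPM in A1. The groups did not overlap at either phase, and their order was opposite. The share of all genes that part in this way is given below for stationary phase only. Nuf2 was lower in exponential A1 (log2 fold change -0.33 ± 0.11, adjusted p = 0.034 from edgeR) and higher in stationary A1 (0.57 ± 0.16, adjusted p = 0.013 from edgeR). The exponential call was lost without A0 culture 1 or 4 or without any single A1 culture, and the stationary call without A1 culture 1 or 2. In CHO-S it had 47.6, 44.0 and 43.3 CPM at exponential and 19.6, 13.8 and 18.2 CPM at stationary phase.

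Spc24 (gene ID 100770237), which with Spc25 ties the complex to the inner kinetochore, had 101, 96.5, 71.5 and 52.9 CPM in exponential A0 and 51.0, 48.6 and 49.9 CPM in exponential A1. At stationary phase it had 36.3, 32.2, 37.0 and 40.6 CPM in A0 and 49.1, 48.4 and 58.8 CPM in A1. Its level in A1 therefore differed little between the phases, while it fell in each A0 culture. The log2 fold change of A1 against A0 was -0.69 ± 0.17 at exponential phase (adjusted p = 0.0076 from edgeR) and 0.50 ± 0.10 at stationary phase (adjusted p = 0.0014 from edgeR). Against A0 cultures 3 and 4 alone, or with A1 culture 3 left out, Spc24 was not called at exponential phase (adjusted p = 0.077 and 0.053 from edgeR). In CHO-S, Spc24 had 32.3, 30.8 and 31.1 CPM at exponential and 23.7, 25.5 and 26.7 CPM at stationary phase.

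Spc25 (gene ID 100761897), its partner, had 116, 105, 107 and 108 CPM in exponential A0 and 103, 102 and 109 CPM in exponential A1, and these groups overlapped. At stationary phase it had 42.9, 41.5, 67.7 and 67.7 CPM in A0 and 79.5, 75.1 and 76.0 CPM in A1, which did not overlap. Spc25 was higher in stationary A1 (log2 fold change 0.47 ± 0.15, adjusted p = 0.029 from edgeR), a call that was lost without A0 culture 1 or 2 or without any single A1 culture. In CHO-S it had 96.2, 98.8 and 99.4 CPM at exponential and 56.8, 52.3 and 51.2 CPM at stationary phase.

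**Figure D2:**
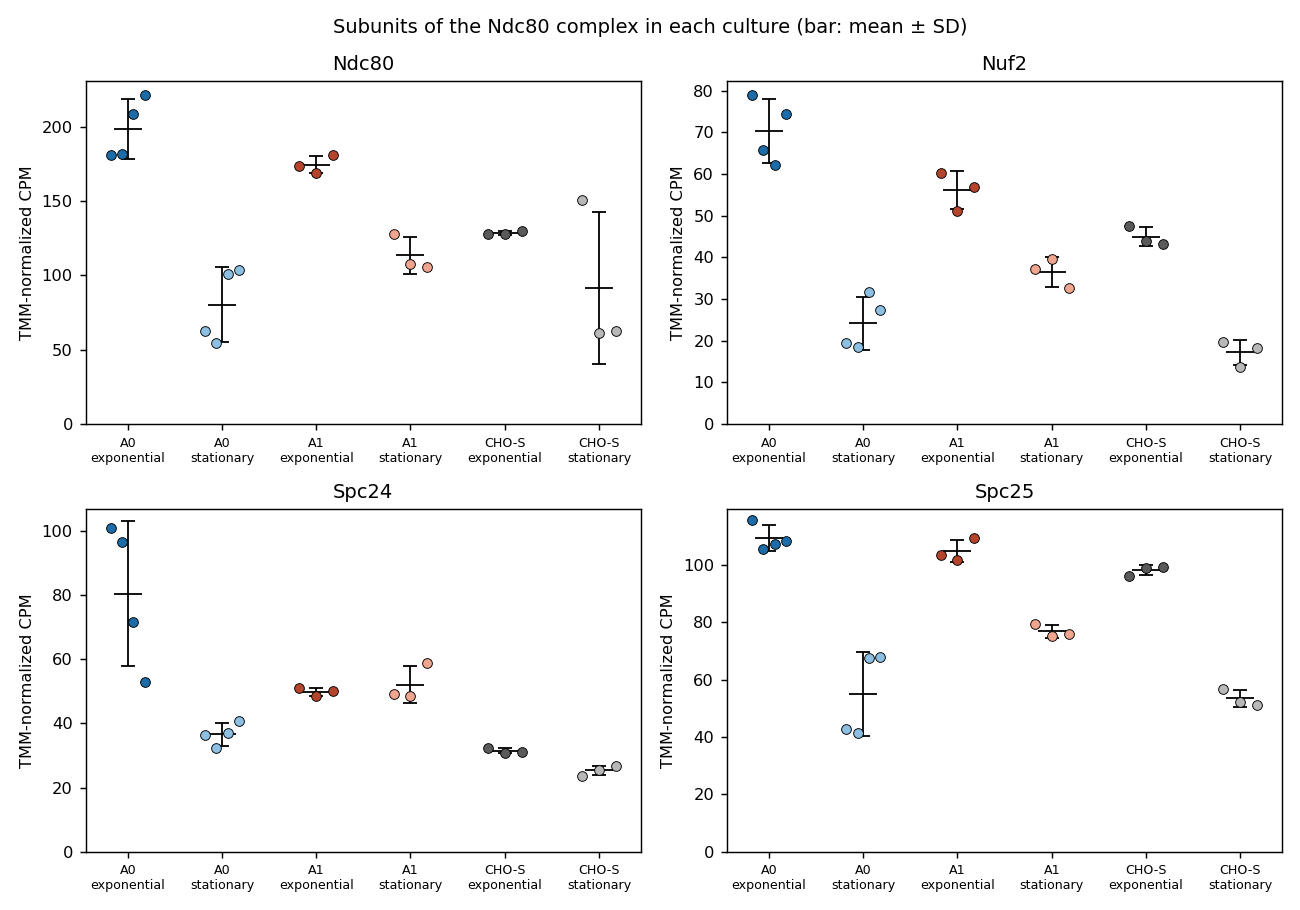
Normalized CPM of Ndc80, Nuf2, Spc24 and Spc25 in each culture, in 1 panel for each gene, with the 6 groups on the x axis. Points are cultures in the order of their numbers and bars give the mean ± SD of the group. Stationary A1 lies above stationary A0 for the 4 genes, and Spc24 has 48.4 to 58.8 CPM in stationary A1 against 48.6 to 51.0 in exponential A1.

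The comparison of A1 with A0 asks how the amplified progeny differs from its parent. At exponential phase, 8 of the 46 genes were higher and 9 lower in A1 at an adjusted p under 0.05, while 25.7% of all 20021 genes tested were called in either direction. The median log2 fold change was -0.03 for the 46 genes and -0.04 for all genes tested. The list did not move as a whole, and its called members went in opposite directions. Leaving out A1 culture 1, 2 or 3 reduced the 17 calls to 9, 10 and 8. With the first library of each A0 culture alone, 14 genes were higher and 7 lower, and the median turned to 0.03 (29.9% of all genes called). Against A0 cultures 1 and 2 alone 13 were higher and 11 lower, with a median of 0.08 (37.3% called), and against cultures 3 and 4 alone 7 and 7 were, with a median of -0.07 (25.3% called). The balance of the 2 directions thus varied with the A0 libraries used.

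The 8 genes higher in exponential A1 were spread over the role groups. Knl1, the kinetochore scaffold that receives checkpoint proteins, had 62.4, 70.5, 83.4 and 85.9 CPM in A0 and 102, 107 and 100.5 CPM in A1 (log2 fold change 0.45 ± 0.11). Cdc20, the activator of the anaphase-promoting complex, had 195, 178, 179 and 205 CPM in A0 and 254, 244 and 261 CPM in A1 (0.42 ± 0.09). Cenpe, a kinetochore motor that moves chromosomes to the spindle equator, had 179, 193, 252 and 259.6 CPM in A0 and 291, 304 and 284 CPM in A1 (0.41 ± 0.12). None of these groups overlapped. For exponential cultures that part in this way, here and below, the share of all genes is not given. The parting therefore only describes these called genes. The call of Cenpe was lost without A0 culture 2, without any single A1 culture and against A0 cultures 3 and 4 alone.

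Aurka, the centrosomal Aurora kinase, had 98.2, 86.5, 96.2 and 87.5 CPM in exponential A0 and 118, 114 and 124 CPM in A1 (log2 fold change 0.37 ± 0.09). Its activator Tpx2, a spindle assembly factor, had 276, 278, 322 and 302 CPM in A0 and 366, 382 and 396 CPM in A1 (0.37 ± 0.09). Kif2c, a kinesin that depolymerizes microtubules at the centromere, had 134, 139.8, 151 and 159 CPM in A0 and 193, 185 and 184 CPM in A1 (0.36 ± 0.09). The A0 and A1 cultures of these 3 genes did not overlap, with the same limit.

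Smc4, a condensin ATPase, had 284, 295, 327 and 380.5 CPM in exponential A0 and 388, 413 and 397 CPM in A1 (log2 fold change 0.31 ± 0.10). Bub1, a checkpoint kinase at the kinetochore, had 99.8, 98.9, 103 and 107 CPM in A0 and 123, 124 and 125 CPM in A1 (0.28 ± 0.08). Both were higher in each A1 culture than in each A0 culture, with the same limit.

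Among the 9 genes lower in exponential A1, Spc24 had the largest difference. Cenpn, which recognizes Cenpa nucleosomes, had 40.4, 39.7, 32.8 and 27.1 CPM in A0 and 24, 24.8 and 22.1 CPM in A1 (log2 fold change -0.57 ± 0.14). Birc5, the survivin subunit of the chromosomal passenger complex, had 309, 273, 253 and 196 CPM in A0 and 182, 178 and 186 CPM in A1 (-0.50 ± 0.12). For Spc24, Cenpn and Birc5 alike, A0 culture 4 was the lowest of A0 and nearest to A1. The others were Top2a, the topoisomerase that untangles sister chromatids (-0.47), the checkpoint effector Mad2l1 (-0.45), Nuf2 (-0.33), the contractile ring scaffold Anln (-0.32), the centromeric histone Cenpa (-0.30) and the cyclin Ccnb2 (-0.28). Of all 17 calls, those of Mad2l1, Cdc20 and Tpx2 were kept in each of the 17 other fits made for this comparison.

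At stationary phase, 34 of the 46 genes were higher in A1 than in A0 and 0 were lower by edgeR, against 16% of all 19293 genes called higher and 17.7% called lower. At an unadjusted p under 0.05, 37 genes passed, and DESeq2 also called 34 higher and 0 lower. For this and all later counts at an unadjusted p, the share of all genes at that cutoff is not given here. The median log2 fold change was 0.54 for the 46 genes, or 1.45-fold, and -0.00 for all genes tested. The estimate was positive for 45 genes, the exception being Cdk1. The A1 cultures lay above all 4 A0 cultures for 35 genes, while 20% of all genes tested showed this, and they lay below them for 0 genes.

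Against A0 cultures 1 and 2 alone, 44 genes were higher and 0 lower, with a median of 0.90, where 20.2% of all genes were called higher and 21.6% lower. Against A0 cultures 3 and 4 alone, 30 were higher and 1 lower, with a median of 0.31, where 18.2% and 19.1% of all genes were. The 1 lower gene was Top2a (-0.21). For 43 of the 46 genes, both of A0 cultures 3 and 4 were above both of cultures 1 and 2, which 26.1% of all genes tested showed. The size of the difference thus depended on the A0 cultures it was set against, and the reason why these differ was not tested. The direction of 45 genes was the same with each tool, filter and scaling tried, and Cdk1 was 0.0084 with library size alone as the scaling. Leaving out each culture in turn gave 25 to 43 genes higher and 0 lower. Of the 34 calls, 24 were kept in each of these and the other fits. Those of Nuf2, Spc25, Cenpk, Bub3, Mad2l1, Ttk, Aurkb, Plk1, Ccnb1 and Kif23 were lost when some single culture was left out.

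**Figure D3:**
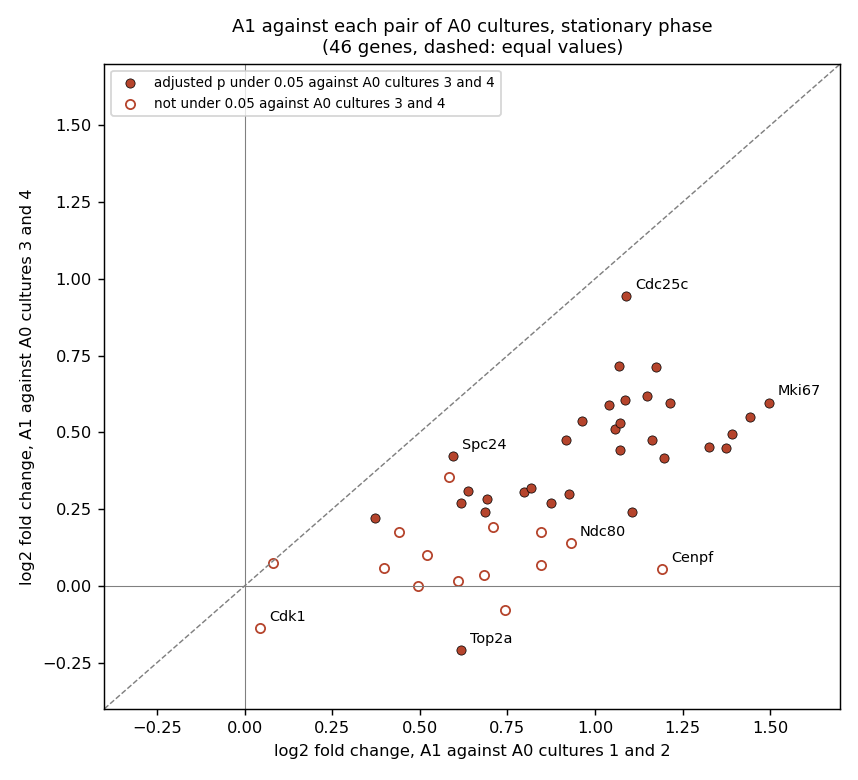
Log2 fold change of A1 at stationary phase against A0 cultures 1 and 2 alone (x axis) and against A0 cultures 3 and 4 alone (y axis) for the 46 genes. Filled points passed an adjusted p of 0.05 against cultures 3 and 4, open points did not, and the dashed line marks equal values. All 46 points lie below the line, with medians of 0.90 on the x axis and 0.31 on the y axis.

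The largest differences of stationary A1 from stationary A0 were those of Cdc25c, Mki67 and Smc4. Cdc25c, a phosphatase that activates Cdk1 at mitotic entry, had 5.40, 4.29, 5.14 and 5.62 CPM in stationary A0 and 9.81, 10.4 and 10.8 CPM in A1. The A0 cultures lay close together for this gene, and its log2 fold change was 1.01 ± 0.15 (adjusted p = 1.2e-04 from edgeR). Mki67, the Ki-67 protein that coats mitotic chromosomes and marks cycling cells, had 329, 331, 583 and 659 CPM in A0 and 1015, 919 and 892 CPM in A1 (0.97 ± 0.19). Smc4 had 99.5, 87.2, 176 and 174 CPM in A0 and 273, 252 and 246 CPM in A1 (0.92 ± 0.19). The 3 calls were kept in each of the other fits made for this comparison.

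Genes of the centromere and kinetochore all had positive estimates at stationary phase, and some of them passed the threshold. The outer components Knl1 (log2 fold change 0.87) and Cenpe (0.75) and the inner components Cenph (0.74) and Cenpk (0.47), both of the network built on Cenpa nucleosomes, were higher in A1. Cenpa itself (0.22), Cenpn (0.08) and Cenpf (0.51), a large kinetochore and nuclear envelope protein, did not pass. The value of Cenpf was above that of Cenpk, and these genes were not tested against each other. Cenpn had 17.5 to 18.3 CPM in stationary A0 and 17.5 to 21.5 CPM in A1, and these overlapped.

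Of all genes, 16% were called higher in stationary A1 and 17.7% lower, and the role groups below are read against these shares. All 5 spindle checkpoint genes were higher in stationary A1. These were Bub1 (log2 fold change 0.87), its relative Bub1b (0.78), which inhibits Cdc20, the kinase Ttk (0.53), which starts the checkpoint, Mad2l1 (0.30) and the adaptor Bub3 (0.29). Only the calls of Bub1 and Bub1b were kept with each culture left out in turn. Bub1 had 48.7, 39.6, 65.2 and 71.1 CPM in stationary A0 and 113, 101 and 96.8 CPM in A1.

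Of the chromosomal passenger complex and the mitotic kinases, 4 of 7 genes were higher, against the 16% of all genes. Aurka had the largest value (log2 fold change 0.79), followed by Plk1 (0.54), the polo-like kinase, Birc5 (0.46) and Aurkb (0.43), the catalytic subunit of the passenger complex. Its other subunits Incenp (0.40) and Cdca8 (0.29) did not pass. Cdk1, singled out after its values were seen, had 146, 128, 152 and 161 CPM in stationary A0 and 144, 139 and 145 CPM in A1, with a log2 fold change of -0.05 ± 0.08.

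Of the cyclins, Cdc25c and the genes of the anaphase-promoting complex, 7 of 8 were higher. Beside Cdc25c these were separase Espl1 (log2 fold change 0.83), which cuts cohesin, the ubiquitin-conjugating enzyme Ube2c (0.82), Ccna2, cyclin A (0.77), Cdc20 (0.73), Ccnb1, cyclin B (0.45), and Pttg1 (0.43), the securin that restrains separase. Ccnb2 (0.23) did not pass. Espl1 and its inhibitor Pttg1 were thus both higher in stationary A1 than in stationary A0. Both were lower in stationary than in exponential A1.

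Of the spindle motors and assembly factors, Kif2c (log2 fold change 0.92) and Tpx2 (0.68) were higher and the chromokinesin Kif4a (0.27) did not pass. Kif2c had 70.1, 60.3, 86.6 and 94.1 CPM in stationary A0 and 156, 147 and 144 CPM in A1. Of the 6 genes of the central spindle and cytokinesis, 4 were higher, namely Kif20a (0.88) and Kif23 (0.61), kinesins of the central spindle, Ect2 (0.86), the exchange factor that activates RhoA for furrowing, and its partner Racgap1 (0.47). The microtubule bundler Prc1 (0.32) and Anln (0.28) did not pass. Of the 6 chromosome structure genes, 5 were higher, with the condensin subunits Ncapg (0.82), Ncaph (0.72) and Smc2 (0.55) beside Smc4 and Mki67, while Top2a (0.14) did not pass.

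**Figure D4:**
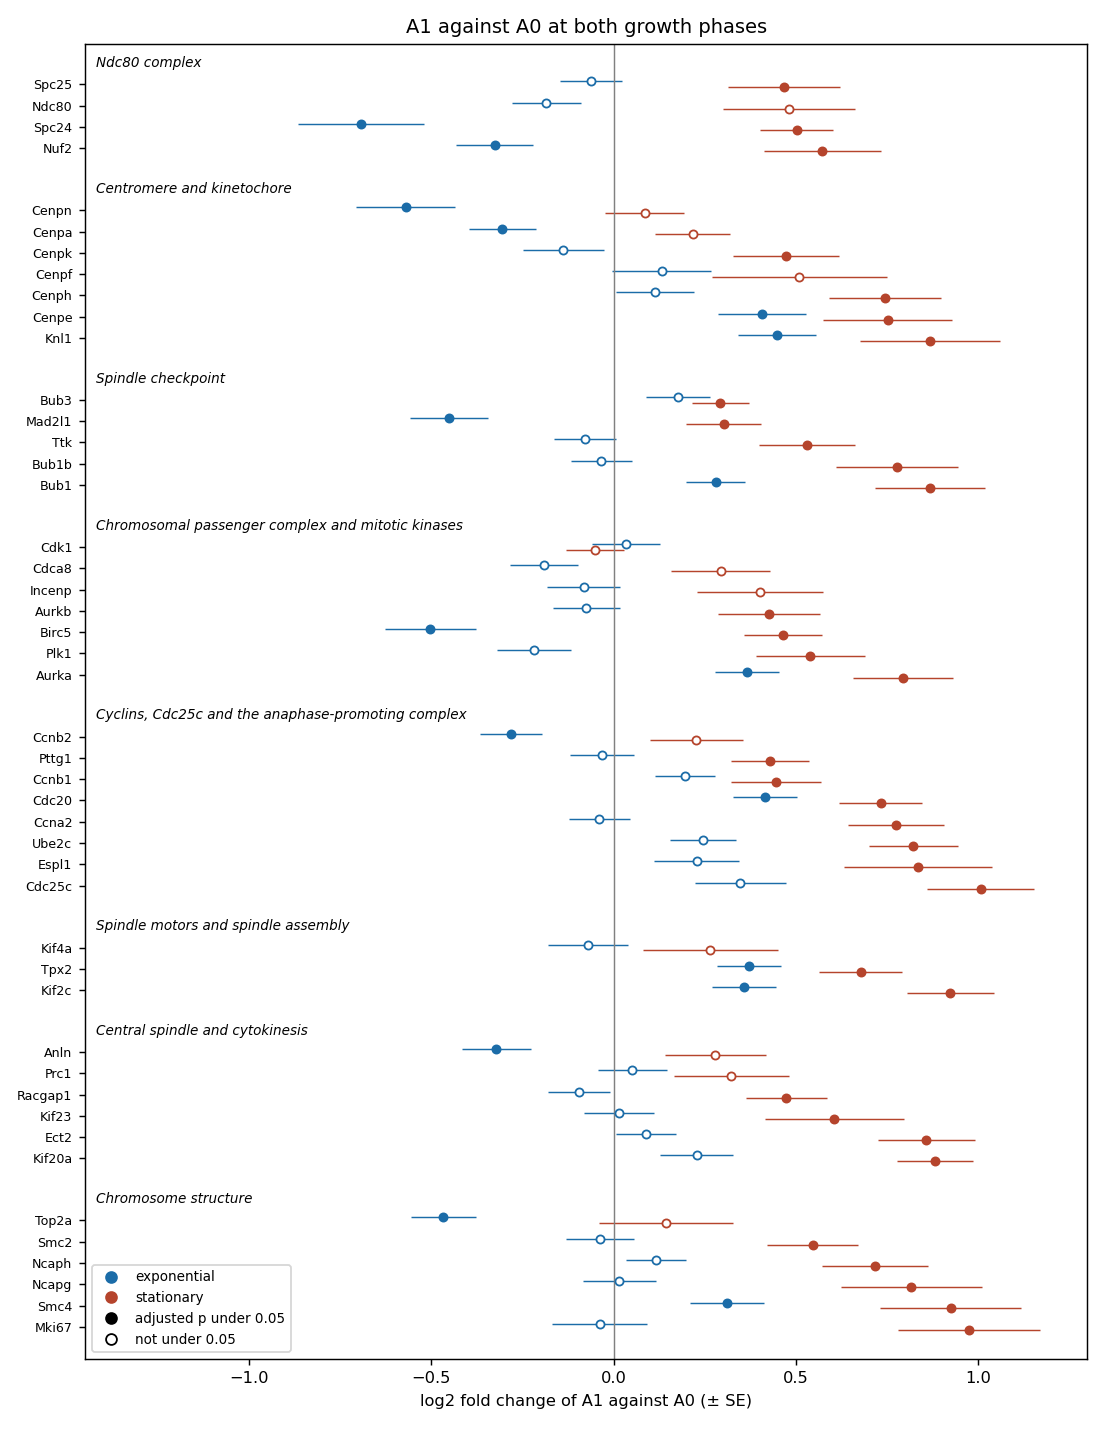
Log2 fold change of A1 against A0 (x axis, ± SE) for each of the 46 genes, grouped by role, at exponential phase (blue) and at stationary phase (red). Filled points had an adjusted p under 0.05 in edgeR and open points did not. At stationary phase 45 genes lie right of 0, and at exponential phase 22 do.

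Whether the difference between A1 and A0 itself differed between the phases was tested as an interaction term of line and phase. It was positive and called for 26 of the 46 genes and negative for 0 by edgeR, against 5.03% of all 20978 genes called positive and 3.89% called negative. At an unadjusted p under 0.05, 37 genes passed, and DESeq2 called 28 positive and 0 negative. The median of the interaction was 0.59 on the log2 scale for the 46 genes and 0.02 for all genes. With the culture number as a block, 42 were called. This block also pairs the phases of A1 by number, where the numbers were not taken to pair, and that limits the count. With A0 cultures 1 and 2 alone, 44 genes were called, all positive (median 0.80), where 12% of all genes were positive and 10.7% negative. With A0 cultures 3 and 4 alone, 21 were, all positive (median 0.36), where 5.09% and 3.97% of all genes were. Leaving out each culture in turn gave 10 to 36 calls, all positive, and the count fell to 10, 13, 13, 15, 16 and 17 without exponential A1 culture 3, stationary A1 cultures 1 and 2, exponential A1 culture 1, stationary A0 culture 1 and stationary A1 culture 3.

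The largest interactions were those of Spc24 (log2 value 1.20 ± 0.22, adjusted p = 0.0011 from edgeR), Mki67 (1.02 ± 0.26, adjusted p = 0.013 from edgeR) and Birc5 (0.97 ± 0.18, adjusted p = 0.0011 from edgeR). Mki67 had 1018, 1226, 1682 and 1365 CPM in exponential A0 and 1324, 1342 and 1199 CPM in exponential A1, which overlapped, and its stationary values are given above. Birc5, lower in exponential A1, had 89.0, 73.4, 98.2 and 107 CPM in stationary A0 and 139, 127 and 118 CPM in stationary A1, so that the order of the lines was turned. Nuf2, Spc24, Mad2l1 and Birc5 were each called lower in exponential A1, higher in stationary A1 and positive in the interaction. Anln, Ccnb2, Cenpa and Cenpn, also lower in exponential A1, had a called interaction with no call at stationary phase. For 16 genes without a call at exponential phase, both the stationary difference and the interaction were called, among them Plk1, Ccna2, Cdc25c, Mki67 and Ect2. The interaction of Mki67 lost its call without exponential A1 culture 3.

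The interaction of Ndc80 was 0.67 ± 0.22 and missed the threshold (adjusted p = 0.053 from edgeR), and that of Spc25 was 0.53 ± 0.18 (adjusted p = 0.071 from edgeR). That of Nuf2 was 0.90 ± 0.20 (adjusted p = 0.0052 from edgeR). With the culture number as a block, both Ndc80 and Spc25 passed, with the same limit on the pairing of A1.

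The fall from exponential to stationary phase was then compared within each line. In A0, 44 of the 46 genes were lower at stationary phase and 0 were higher by edgeR, against 20% of all 20326 genes called lower and 17.6% called higher. At an unadjusted p under 0.05, 45 genes passed, and DESeq2 called 44 lower and 0 higher. The median log2 fold change was -0.98, a fall of 1.97-fold, and those of Plk1, Ect2, Nuf2, Bub1b and Birc5 were -1.58, -1.58, -1.55, -1.51 and -1.50. Cdk1 (-0.04) and Cenpf (-0.58) did not pass. In A0 cultures 1 and 2 alone 45 genes were lower with a median of -1.26 (21.8% of all genes lower), and in cultures 3 and 4 alone 44 were with a median of -0.75 (14.4% of all genes lower).

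In A1, 41 of the 46 genes were lower at stationary phase and 0 were higher by edgeR, against 17.8% of all 18548 genes called lower and 15.6% called higher. Without adjustment, 44 genes had a p under 0.05, and DESeq2 called 39 lower and 0 higher. The median was -0.43, a fall of 1.35-fold. The largest falls were those of Plk1 (-0.79), Anln (-0.78) and Ect2 (-0.77). Spc24 (0.09), Cdk1 (-0.09), Cenpf (-0.16), Cenpk (-0.26) and Cdc25c (-0.30) did not pass. For 44 of the 46 genes each stationary A1 culture was below each exponential A1 culture, which 23.8% of all genes tested showed. The fall was smaller in A1 than in A0 for 45 genes. In a fit over all 6 groups, whose spread includes that of A0 and CHO-S, 21 genes were called lower in A1.

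In CHO-S, 24 of the 46 genes were lower at stationary phase and 0 were higher by edgeR, against 6.48% of all 17367 genes called lower and 6.81% called higher. Without adjustment, 36 genes had a p under 0.05, and DESeq2 called 28 lower and 0 higher. The median was -0.68. Without stationary culture 1, 45 genes were lower, with a median of -0.81, the exception being Pttg1, while the share of all genes called lower also rose, to 24.7%. Pttg1 had 53.1, 59.6 and 58.2 CPM in exponential CHO-S and 18.6, 50.9 and 52.2 CPM in stationary CHO-S, where the low value rests on 18 counts of the shallow library. Leaving out another CHO-S culture instead gave 0 to 10 genes. Nuf2 fell by 1.54 on the log2 scale without that culture, Ndc80 by 1.05, Spc25 by 0.92 and Spc24 by 0.27.

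**Figure D5:**
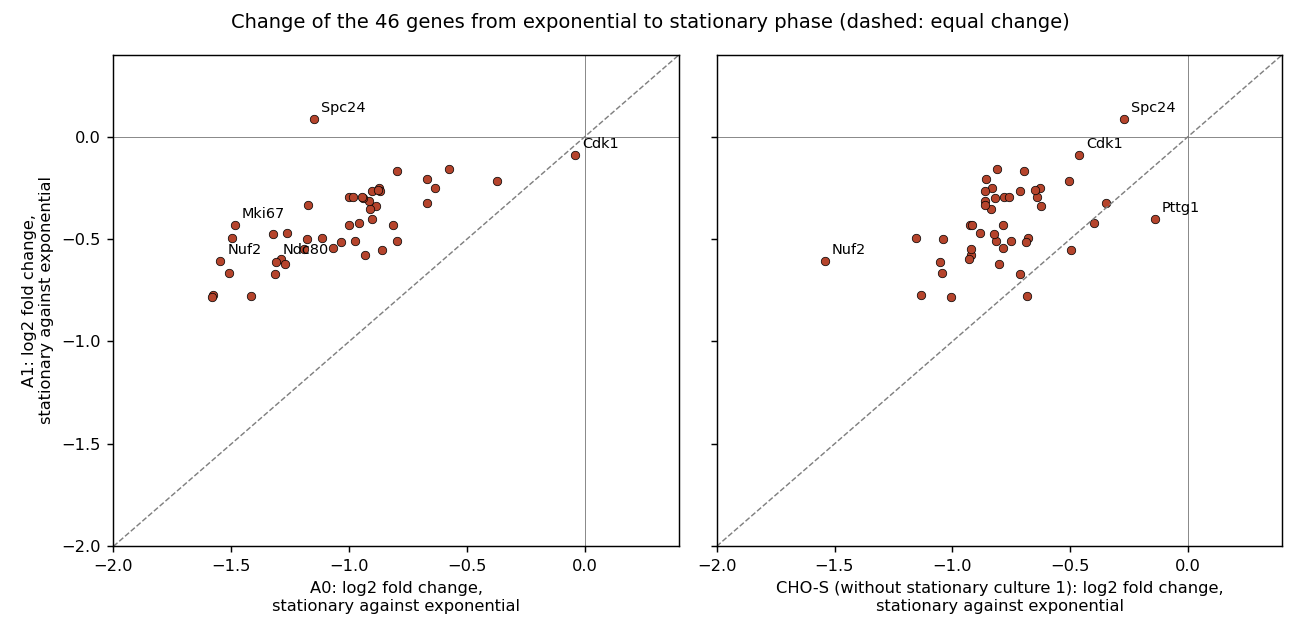
Log2 fold change from exponential to stationary phase in A1 (y axis) against that in A0 (x axis, left panel) and in CHO-S without its shallow stationary culture 1 (x axis, right panel) for the 46 genes, with a dashed line of equal change. In the left panel 45 genes lie above the line and in the right panel 42 do. Spc24 is the 1 gene above 0 in A1.

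Levels in the producing lines were set beside those of CHO-S, which shares neither the host clone nor the transgenes. At exponential phase 22 of the 46 genes were higher and 11 lower in A0 than in CHO-S, where 27.4% of all 20052 genes were called higher and 21.8% lower. In A1 24 were higher and 9 lower than in CHO-S, against 30.0% of all 18488 genes called higher and 27.1% lower. The medians of the 46 genes were 0.11 and 0.14, and those of all genes tested were 0.15 and 0.05. The same CHO-S cultures serve both comparisons.

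The subunits Ndc80, Nuf2 and Spc24 were higher in both producing lines than in exponential CHO-S, with log2 fold changes of 0.63, 0.66 and 1.37 in A0 and 0.43, 0.31 and 0.66 in A1. Cenpf and Cenpe were lower in both, with values of -1.63 and -1.33 in A0 and -1.52 and -0.94 in A1. Cenpe had 530.3 to 600.2 CPM in exponential CHO-S. Cdk1 was also lower in both (-0.40 and -0.38), with 204, 204 and 192 CPM in exponential CHO-S.

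At stationary phase 14 of the 46 genes were higher and 2 lower in A1 than in CHO-S, against 18.2% of all 18243 genes called higher and 16.6% lower, with a median of 0.40. Without stationary CHO-S culture 1, 37 genes were higher and 4 lower, with a median of 0.39, while 29.9% of all genes were called higher and 27.5% lower. Without any other single culture 8 to 11 were called. Nuf2 (log2 fold change 1.13, and 1.20 without CHO-S culture 1), Espl1 (1.06 and 0.85) and Spc24 (1.01 and 0.98) had the largest positive values. Cenpf (-1.28 and -0.90) and Top2a (-0.70 and -0.44) were lower. Ndc80 was not called (0.35) and was 0.84 without CHO-S culture 1 (adjusted p = 3.1e-16 from edgeR).

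In stationary A0, 1 gene, Spc24, was higher than in CHO-S and 9 were lower, with a median of -0.15, against 20.7% of all 19007 genes called higher and 19.3% lower. This result turned with the A0 cultures: cultures 1 and 2 alone gave 0 genes higher and 12 lower with a median of -0.42 (16.4% and 13.8% of all genes), and cultures 3 and 4 alone gave 3 higher and 2 lower with a median of 0.08 (15.6% and 14.1%). Without stationary CHO-S culture 1, 3 were higher and 10 lower with a median of -0.05 (28.0% and 23.8% of all genes), and without its culture 2, 0 were higher and 4 lower. Smc4 (-1.88, and -1.33 without CHO-S culture 1), Cenpf (-1.80 and -1.37) and Cenpe (-1.64 and -1.11) were the lowest. In stationary CHO-S, Smc4 had 792 CPM in culture 1 and 329 and 352 CPM in the others, and Cenpe had 703, 303 and 324 CPM.

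The change between phases was also compared with that of CHO-S. The interaction of A1 with CHO-S was positive and called for 3 genes, Nuf2 (0.87), Kif2c (0.57) and Cenpa (0.47), and negative for 0 by edgeR, with 3.83% of all 19662 genes called positive and 3.77% negative. There were 18 genes at an unadjusted p under 0.05, and DESeq2 called 10 positive and 0 negative. Without stationary CHO-S culture 1, 34 genes were positive and 1 was negative, with a median of 0.35, while 13% of all genes were called positive and 12.4% negative. Nuf2, Kif2c and Cenpa then had 0.91, 0.53 and 0.46. The interaction of A0 with CHO-S was negative for 3 genes, Birc5 (-1.05), Spc24 (-0.88) and Anln (-0.79), and positive for 0 by edgeR, with 6.55% of all 20902 genes called negative and 3.77% positive. At an unadjusted p under 0.05, 11 genes passed, and DESeq2 called 4 negative and 1 positive. Without the share of all genes at the unadjusted cutoff, the 18 and the 11 genes cannot be read as a result about the list. Without stationary CHO-S culture 1, 4 were negative and 1 was positive (8.74% and 8.42% of all genes), and Birc5, Spc24 and Anln had -0.78, -0.84 and -0.69. With A0 cultures 1 and 2 alone 7 were negative (5.40% of all genes), and with cultures 3 and 4 alone 1 was (3.32%).

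Other genes of mitosis, 113 on 7 lists drawn up by function, were examined beside the 46. In A1 against A0 at stationary phase 53 were higher and 8 lower, with a median log2 fold change of 0.32, where 16% of all genes were higher and 17.7% lower. Against A0 cultures 1 and 2 alone 82 were higher and 8 lower (median 0.50), where 20.2% and 21.6% of all genes were. Against cultures 3 and 4 alone 46 and 11 were (median 0.13), where 18.2% and 19.1% of all genes were. At exponential phase 14 were higher and 26 lower (-0.06), where 25.7% of all genes were called in either direction. The interaction was positive for 37 and negative for 0 by edgeR, against 5.03% and 3.89% of all genes, with 63 genes at an unadjusted p under 0.05. The 7 lists below were compared with all 4 A0 cultures and are read against the same 16% and 17.7%. Of the other kinetochore genes, 11 of 16 genes of the outer kinetochore and checkpoint were higher in stationary A1 and 8 of 15 genes of the inner kinetochore and centromere loading were, with 0 lower in each. Dsn1 (1.14), a subunit of the Mis12 complex that holds Ndc80 at the kinetochore, and Ska2 (0.97), of the complex that works with Ndc80 on microtubules, had the largest values of the outer genes, and Oip5 (0.99), which loads Cenpa, and Cenpu (0.96) those of the inner ones.

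Of the 22 other genes of spindle, centrosome and cytokinesis, 12 were higher and 0 lower in stationary A1, led by Sass6 (0.95), a centriole protein, and Arhgap11a (0.86). Of 14 genes of mitotic entry and exit, 7 were higher and 2 lower, with Bora (0.80), an activator of Plk1, and Cks1b (0.79) up and Arpp19 (-0.47) and Cdc25a (-0.36) down. Of 14 genes of cohesin and condensin II, 3 were higher and 1 lower, near the shares over all genes, with Ncapd2 (0.94) and Ncapg2 (0.83) up and the cohesin release factor Wapl (-0.39) down. Ncapd2 is itself a condensin I subunit, of the same complex as Ncapg and Ncaph.

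Of 17 subunits and activators of the anaphase-promoting complex, most of which are not regulated through the cell cycle, 7 were higher and 3 lower in stationary A1, with a median of 0.14. The inhibitor Fbxo5 (0.70) and Cdc23 (0.41) were higher, and Cdc16 (-0.58) and Anapc7 (-0.39) lower. Of 15 transcription regulators of mitotic genes, 5 were higher and 2 lower. E2f1 (1.37 ± 0.16), an activator of cell cycle genes, and Rbl1 (1.24 ± 0.12), the p107 pocket protein, were higher in A1. Rbl2 (-0.45 ± 0.08), the p130 pocket protein of resting cells, and its partner E2f4 (-0.52 ± 0.07) were lower.

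DNA replication genes, a list of 47 for S phase, gave the nearest comparison. In stationary A1 24 were higher and 2 lower than in A0, with a median log2 fold change of 0.41, where 16% of all genes were higher and 17.7% lower. Against A0 cultures 1 and 2 alone 36 were higher and 3 lower (median 0.66), where 20.2% and 21.6% of all genes were. Against cultures 3 and 4 alone 19 and 5 were (median 0.18), where 18.2% and 19.1% of all genes were. The interaction was positive for 25 and negative for 0 by edgeR, with a median of 0.56 and 38 genes at an unadjusted p under 0.05, against 5.03% and 3.89% of all genes. It was positive for 41 with A0 cultures 1 and 2 alone, where 12% of all genes were called positive. With cultures 3 and 4 alone it was positive for 18, where 5.09% of all genes were. At exponential phase 3 were higher and 17 lower in A1, with a median of -0.23, while the 46 mitotic genes had 8 and 9 and a median of -0.03. Of all genes, 25.7% were called there in either direction. The replication genes fell by medians of -1.03 in A0, -0.50 in A1 and -1.03 in CHO-S between the phases, with -0.91 in CHO-S without its stationary culture 1. In A0 cultures 1 and 2 alone the median was -1.34 and in cultures 3 and 4 alone -0.78. The higher stationary level in A1 was therefore shared by the S phase genes and was not tested as particular to the mitotic ones. The cell density and viability at harvest were not analysed here, so the line and how far each culture had passed into stationary phase cannot be told apart.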

How the data were processed

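RNA-seq counts of CHO clones A0 and A1 and of CHO-S were analysed. The authors aligned reads with STAR 2.5.4b to the Chinese hamster genome C_griseus_v1.0 and counted them per gene with HTSeq-count 0.7.2, and deposited these counts without normalization. The strand setting is not given in the sources used here, so overlapping and antisense genes are uncertain, and reads aligned to more than 1 place (12.7% to 14.8%) are not in the counts of near-identical copies. The 5 summary rows were left out.

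Exponential A0 libraries of the same culture number were summed. A gene entered a comparison, of which there were 12, if 2 or more of its libraries had a count. Counts were scaled by TMM and compared by the two-sided quasi-likelihood test of edgeR 4.0.16 under R 4.3.3. P-values were adjusted over all genes tested by the Benjamini-Hochberg method, with a threshold of 0.05, and adjusted p in the text refers to this. CPM were TMM-normalized over all 20 cultures. Standard errors were derived from the fold change and the F statistic. Alternatives covered DESeq2 1.42.0, other scalings and filters, 1 fit over all groups, a replicate block, the A0 libraries or cultures used and leaving out each culture. The procedure was run on simulated counts for A1 against A0 at stationary phase and for its interaction with phase. Every gene there had the same dispersion, and the A0 cultures did not part into pairs. CHO-S was not simulated, so that run does not cover these features of the data. Figures were drawn with matplotlib 3.10.9.

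The members and lists were chosen with earlier results of these data known. All matched members are named; values in every culture are given for the Ndc80 complex and, in the A0 and A1 cultures compared, for A1 against A0 and its interaction with phase, for the 3 largest called rises and falls with at least 5 CPM on average and for calls against the majority. Up to 2 genes higher and 2 genes lower in A1 than in A0 at stationary phase are named for each other list. Same-numbered A0 cultures of the phases deviated together (correlations of 0.19 to 0.42), but the main fits did not pair them. Those of different numbers ranged from -0.39 to 0.31, and exponential cultures 3 and 4 correlated more with stationary cultures 4 (0.31) and 3 (0.27) than with their own numbers (0.26 and 0.19), so the numbers part cultures 1 and 2 from 3 and 4 but do not tell 3 from 4. The same numbers of A1 (-0.12 to 0.13) and CHO-S (-0.01 to 0.08) were not taken to pair. Only the replicate block, an alternative, used the numbers, and within lines and in the interactions it paired the phases of every line. Promoter motifs of the members were not analysed here, as no sequence of the build was used. A marker gene set out for checking the cell line labels is not reported here.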

Additional observations from a re-analysis of the deposited data

Results flagged for a closer look

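The difference between A1 and A0 was itself different between exponential and stationary phase for 26 of the 46 genes, by the interaction term of edgeR over the 14 cultures of both lines. Of all genes, 5.03% were called positive and 3.89% negative in that fit. Leaving out each culture in turn gave 10 to 36 called members. On the log2 scale, the interaction was 0.90 for Nuf2 and 1.20 for Spc24 of the Ndc80 complex. Among kinetochore genes it was 0.52 for Cenpa, 0.63 for Cenph, 0.61 for Cenpk and 0.66 for Cenpn. Among checkpoint genes it was 0.59 for Bub1, 0.81 for Bub1b, 0.75 for Mad2l1 and 0.61 for Ttk. Birc5 had 0.97 and Plk1 0.76, and Ccna2, Ccnb2, Cdc25c, Ube2c and Pttg1 had 0.82, 0.51, 0.66, 0.58 and 0.46. Kif2c had 0.57, and the cytokinesis genes Kif20a, Anln, Ect2 and Racgap1 had 0.66, 0.60, 0.77 and 0.57. Among genes of chromosome structure, Mki67, Smc2, Ncapg and Ncaph had 1.02, 0.58, 0.80 and 0.60. Of these 26 calls, those of Nuf2, Spc24, Bub1b, Mad2l1, Birc5, Plk1, Ccna2, Kif20a, Ect2 and Racgap1 were kept in each of the other fits made.

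The change between the phases differed between A0 and CHO-S for Spc24 (-0.88), Birc5 (-1.05) and Anln (-0.79), and between A1 and CHO-S for Nuf2 (0.87), Cenpa (0.47) and Kif2c (0.57), by the same test. The spread of the shallow stationary CHO-S culture 1 enters these 6 values. Without it they were -0.84, -0.78 and -0.69 and 0.91, 0.46 and 0.53. Of all genes, 6.55% were called negative in the interaction of A0 with CHO-S and 3.83% positive in that of A1. The 3 calls of each are therefore not read as a result about the list. In each interaction, 0 of the 3 calls were kept in every other fit.

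Within the groups of 4 A0 cultures, the gap of the highest or lowest culture to its neighbour stayed under Dixon's critical value for all 92 combinations of gene and group tested. A0 cultures 1 and 2 and cultures 3 and 4 of stationary phase, which part for 43 of the 46 genes (26.1% of all genes tested), leave no single culture apart. The rule can flag a single culture but hardly a pair, so its outcome does not show that the cultures were alike. Groups of 3 cultures, stationary CHO-S among them, were not tested.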

How the results depend on the processing

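In a fit over all 6 groups the members called numbered 8 for A1 against A0 at exponential phase, 21 for the fall in A1, 10 and 27 for A1 against CHO-S at exponential and stationary phase, 13 for the interaction of A1 with A0, and 7 and 1 for those of A0 and A1 with CHO-S. The cause was not tested. With a replicate block they numbered 42 for the interaction of A1 with A0, 4 for the fall in CHO-S, and 5 and 0 for the interactions of A0 and A1 with CHO-S. In these fits the block paired the phases by number, also in A1 and CHO-S, where the numbers were not taken to pair. The block moved no other count by over 1.5 times, and between lines it takes no information from A0 culture 4, which has no counterpart. Against A0 cultures 1 and 2 alone the interactions with A1 and CHO-S gave 44 and 7. A0 cultures 3 and 4 alone gave 5 against stationary CHO-S, 3 of them higher, and 1 in the interaction with CHO-S. Without TMM, A1 against stationary CHO-S gave 25 and its interaction 8, and the median of all genes moved from 0.06 to 0.22 on the log2 scale in the former. DESeq2 gave 5 and 10 for the interactions of A0 and A1 with CHO-S, and filterByExpr 5 for the latter. The share of all genes called in the same fit is not given for these counts, except above for the A0 pairs. The counts therefore describe how calls moved and are not a result about the list.

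Leaving out each culture gave 8 to 19 called members for A1 against A0 at exponential and 25 to 43 at stationary phase, 44 to 45 for the fall in A0, 39 to 43 in A1 and 0 to 45 in CHO-S. It gave 27 to 36 and 4 to 13 for A0 against CHO-S at exponential and stationary phase, 30 to 35 and 8 to 41 for A1 against CHO-S, and 10 to 36, 1 to 6 and 1 to 35 for the interactions of A1 with A0, A0 with CHO-S and A1 with CHO-S. The upper ends for CHO-S of 45, 41 and 35 are those without stationary culture 1, and without another culture the highest counts were 10, 11 and 2. The share of all genes called is not given for these fits, except above for those without stationary CHO-S culture 1. These ranges are therefore not a result about the list, and the same holds for counts of other fits given above without a share.

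Of 135 values given for single genes, 63 kept their direction and call in all fits. The direction turned for Cdk1 in stationary A1 against A0 with library size alone (0.0084) and against A0 cultures 1 and 2 (0.043), and against A0 cultures 3 and 4 for Ccnb2 (-0.00025), Kif4a (-0.079) and Top2a (-0.21, the 1 reversed value with a call). Leaving out single cultures, Top2a ranged from -0.0059 to 0.30. The change of Cdk1 in A0 turned with library size alone (0.016), the first libraries alone (0.016) and A0 cultures 3 and 4 alone (0.10), and leaving out single cultures it ranged from -0.098 to 0.016. That of Spc24 in A1 ranged from -0.020 to 0.15.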
